A study of Mus musculus with 2 samples.

Results

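Interferon-stimulated genes were followed in skin of newborn mice that lack Sdr9c7, an enzyme of the acylceramides that seal the epidermal barrier. The set holds 35 genes that interferons are known to induce, chosen by name: all probes whose gene name in the scanner files is on the list were taken. All 35 were on the array, of 31044 gene names in all, through 45 probes and 63 spots. All 35 were measured, meaning that at least 1 probe was well above background on both arrays, beside 22728 measured gene names in the whole experiment.

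The comparison was between Sdr9c7-/- (knockout) and wild type mice at P0, both on the C57BL/6J strain background. RNA came from dorsal skin, which the series' design text calls epidermis. Each genotype had 1 array, hybridised with a pool of equal amounts of RNA from 5 animals, so the spread between animals is unknown and no p-value can be given. Genotype and array cannot be told apart.

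Interferons are secreted when cells sense viral or misplaced nucleic acid. Type I interferons bind a receptor of the chains Ifnar1 and Ifnar2, and the kinases Jak1 and Tyk2 then switch on the factor ISGF3, which contains Stat2 and Irf9. This factor binds a promoter element, the interferon-stimulated response element, and switches on the genes followed here. Interferon gamma works through its own receptor and is the stronger inducer of guanylate-binding GTPases and of antigen presentation genes. In skin these genes are known as a signature of viral infection, lupus and other inflammation, and many are also transcribed at a low basal level.

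The promoters of 6 members are shown as examples of the element, 4 from higher and 2 from lower members. All 6 were picked because they hold a match, and all were within 1.5-fold between the genotypes. Usp18 and Oas2, the members with the largest differences, have no entry in the promoter table. Each is the 160 bases before the annotated start, 5′ to 3′ along the gene, from RefSeq on GRCm38.p6. Capitals mark every match to the core of the response element, GAAA, any 2 bases, then GAAA, searched on both strands. A match on the opposite strand appears as TTTC, any 2 bases, then TTTC.
Ifit1 (chr19:34640729-34640888, plus strand): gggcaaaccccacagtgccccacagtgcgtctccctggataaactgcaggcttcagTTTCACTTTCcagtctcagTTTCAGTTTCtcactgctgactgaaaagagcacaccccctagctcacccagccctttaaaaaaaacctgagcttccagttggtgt
Ifit3 (chr19:34583369-34583528, plus strand): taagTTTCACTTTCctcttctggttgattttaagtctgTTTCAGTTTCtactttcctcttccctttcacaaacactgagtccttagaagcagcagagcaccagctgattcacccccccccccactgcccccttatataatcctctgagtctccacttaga
Isg15 (chr4:156200819-156200978, minus strand): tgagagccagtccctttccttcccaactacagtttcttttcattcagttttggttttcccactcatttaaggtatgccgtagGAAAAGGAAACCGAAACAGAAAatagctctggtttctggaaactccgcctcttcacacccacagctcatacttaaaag
Oas1a (chr5:120907526-120907685, minus strand): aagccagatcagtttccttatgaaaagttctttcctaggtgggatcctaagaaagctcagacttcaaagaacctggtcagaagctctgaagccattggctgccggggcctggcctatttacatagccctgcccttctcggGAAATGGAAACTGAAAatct
Bst2 (chr8:71537473-71537632, minus strand): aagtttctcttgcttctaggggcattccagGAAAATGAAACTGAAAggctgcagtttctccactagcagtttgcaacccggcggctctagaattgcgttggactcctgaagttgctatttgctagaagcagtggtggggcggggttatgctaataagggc
Gbp2 (chr3:142620503-142620662, plus strand): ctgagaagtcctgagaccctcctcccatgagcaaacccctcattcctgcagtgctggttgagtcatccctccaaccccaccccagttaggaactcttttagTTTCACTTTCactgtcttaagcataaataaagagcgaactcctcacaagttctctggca
The first 4 of these genes were higher in the knockout and the last, Bst2 and Gbp2, were lower, as given below.

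Most members differed little between the arrays. Of the 35 members, 33 were within 1.5-fold between the genotypes and all 35 within 2-fold. The exceptions were Usp18 and Oas2, both higher in the knockout, and no member was 1.5-fold lower. Among all measured genes 2.38% were at least 1.5-fold higher, 6.06% at least 1.5-fold lower and 8.44% apart by that much in either direction. At 2-fold the shares were 0.546% higher, 1.37% lower and 1.92% in either direction. The split of higher against lower depends on scaling: 28.2% of the genes 1.5-fold apart were higher, and 38.5% after quantile normalization. The median log2 difference (knockout minus wild type) was 0.08 over the members and −0.04 over all measured genes, and 0.02 and −0.06 after normexp background correction. The middle 50% of members lay between −0.06 and 0.21, against −0.21 and 0.12 for all genes. Above 0 were 22 of the 35 members, where 43.1% of all measured genes were above 0. The zero point depends on how the arrays are scaled: scaling on the median of each array gave 25 members above 0, against a share of 50.8% of all genes.

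Technical error was taken from repeated measurements within the arrays. For 320 probes printed at 8 or more usable spots, the spots of a probe differed in log2 difference by a median SD of 0.06. For 5178 genes with several measured probes, those probes differed by a pooled SD of 0.25. By that measure 22 members were within 1 SD of no difference, 8 were higher by more (as were 12.2% of all genes) and 5 were lower by more (as were 20.7%). Most members, 27 of 35, rested on 1 measured probe, and for 7 of the other 8 the probes agreed on the side of 0. The values below are signals relative to the 75th percentile of the array, so that 1 equals it, averaged on the log scale over a gene's probes. A signal may be compared between genotypes for a gene, but not between genes, since probes differ in brightness.

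**Figure D1:**
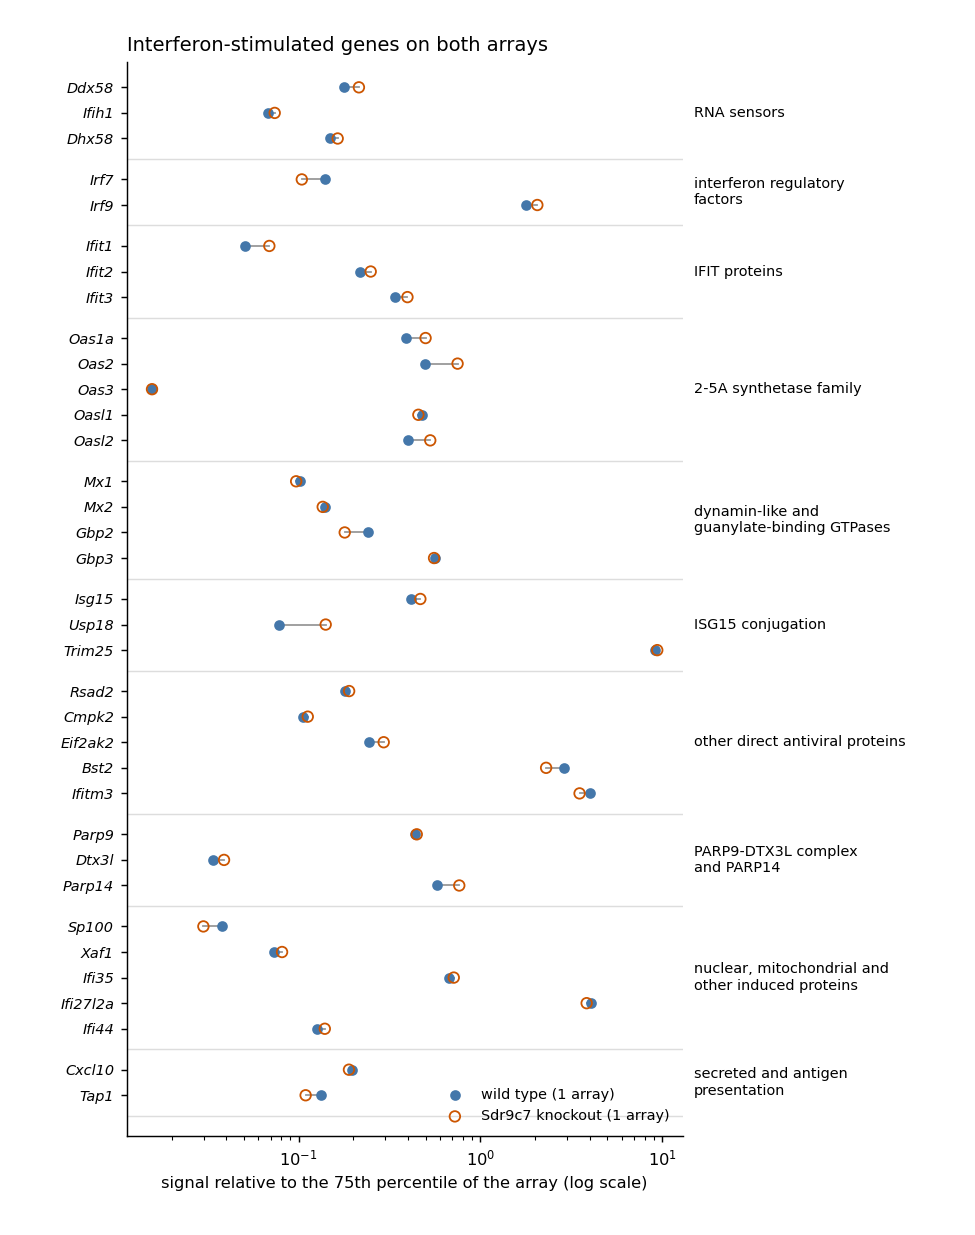
Relative signal of each of the 35 interferon-stimulated genes (log axis, 75th percentile of the array = 1) in wild type skin (filled points) and Sdr9c7 knockout skin (open points), 1 array each, grouped by role. Lines join the genotypes, and the longest is that of Usp18, from 0.0781 to 0.141.

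The ISG15 system held the largest difference. Isg15 is a ubiquitin-like protein that is attached to other proteins after interferon, Trim25 is a ubiquitin ligase that also aids RNA sensing, and Usp18 removes Isg15 and shuts down the interferon receptor. Usp18 read 0.0781 in wild type and 0.141 in knockout skin, 1.80-fold higher (log2 difference 0.85), a value reached by 0.801% of all measured genes. Its probe lies on chromosome 6 from 121220874 to 121220933 (mm9, the build of the scanner files). Spots around the Usp18 probe had a median of −0.02, and the Usp18 value ranged from 0.67 after normexp background correction to 0.90 under quantile normalization. Isg15 read 0.413 and 0.467 (0.18), with 0.23 and 0.13 at its 2 probes. The Trim25 probes disagreed: one read 7.72 in wild type and 6.46 in knockout skin (−0.26), the other 10.9 and 13.7 (0.32), so the gene's mean of 0.03 stands for neither. The Isg15 value lay within the spread between probes, and that of Usp18 beyond it. All positions are those of the probes: whether they fall in coding sequence or UTR was not determined, because the annotation used is of another build.

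Among the oligoadenylate synthetases, which make the messenger that activates RNase L, 3 of 5 were higher. Oas2 read 0.497 in wild type and 0.748 in knockout skin, 1.51-fold higher (0.59), from 1 probe on chromosome 5 from 121180343 to 121180402 (mm9). This lies almost on the 1.5-fold line, and the Oas2 value dropped to 0.51 after normexp correction, short of it. Local correction, which subtracts the median of surrounding spots and then scales the arrays again, gave 0.57, also short. Spots around the Oas2 probe had a median of −0.02, so the subtraction alone would not lower the value. The only Oas2 spot also lies in rows of the slide where dim spots scattered more between the arrays. Oas1a read 0.387 and 0.499 (0.37), and its 2 probes gave 0.30 and 0.43. Oasl2, an oligoadenylate synthetase-like protein, read 0.400 and 0.529 (0.41), and its only spot lies in the same rows as that of Oas2. Oas3 and Oasl1 were level: Oas3 read 0.0156 on both arrays and Oasl1 0.474 and 0.456 (−0.06). The Oas3 probe was dim, and its value ran from −0.22 after normexp correction to 0.09 under quantile normalization. Higher and level members sat side by side in the genome. Probes of Oas1a, Oas2 and Oas3 lie within 168 kb on chromosome 5, and those of Oasl1 and Oasl2 within 25.8 kb on the same chromosome.

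The 3 IFIT genes, whose proteins bind foreign RNA and block its translation, were all higher, and remained above 0 under every scaling. Ifit1 read 0.0505 in wild type and 0.0689 in knockout skin, 1.37-fold higher (0.45), at chromosome 19 from 34723796 to 34723855 (mm9). Ifit2 was at 0.20 (0.216 and 0.249) and Ifit3 at 0.22 (0.341 and 0.397). Only Ifit1 exceeded the pooled SD between probes, and after normexp correction it stood at 0.22, with the others little changed. These genes lie within 73.6 kb of each other, and Ifit3 has a near-identical neighbour, Ifit3b, at 0.34, with which its probe may share signal.

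The cytosolic RNA sensors were slightly higher, again under every scaling. Ddx58, which encodes RIG-I, read 0.177 and 0.214 (0.27), with 0.13 and 0.41 at its 2 probes, the higher value at the dimmer probe. That probe's only spot lies in the rows where dim spots scattered more, and without those rows Ddx58 stood at 0.13. Ifih1, which encodes MDA5, was at 0.13 (0.0676 and 0.0738) and Dhx58, the regulator LGP2, at 0.14 (0.149 and 0.164). The last pair were within the spread between probes, and after normexp correction Ifih1 stood at 0.04 and Dhx58 at 0.08.

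The transcription factors went apart. Irf9, the DNA-binding part of ISGF3, read 1.79 in wild type and 2.06 in knockout skin (0.20). Irf7, which is itself induced and then amplifies interferon alpha production, read 0.140 and 0.104, 1.34-fold lower (−0.43), the lowest value of all 35 members. Of all measured genes, 10.5% were at or below that value. Each rested on 1 probe, and the side of 0 was the same in every setting with a value.

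The interferon-induced GTPases showed no member above 0. Gbp2, a guanylate-binding protein that attacks the vacuoles of intracellular microbes, read 0.240 and 0.179, 1.34-fold lower (−0.42), at chromosome 3 from 142300719 to 142300778 (mm9). Spots around the Gbp2 probe had a median of −0.13, and local correction, with the arrays scaled again, left Gbp2 at −0.32. Gbp3 was level (0.563 and 0.556, −0.02), although its probe lies only 64.7 kb away within the same gene cluster. Mx1 and Mx2, dynamin-like proteins that trap viral particles, were level too, at −0.08 (0.102 and 0.0968) and −0.04 (0.139 and 0.136). Scaling on the median of each array put Gbp3 and Mx2 just above 0. Mx1 is known to be defective in C57BL/6 mice, so its transcript does not stand for an active protein there.

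PARP14 and the pair formed by PARP9 and DTX3L modify proteins with ADP-ribose and ubiquitin and are known to enhance interferon signalling. Parp14 read 0.574 in wild type and 0.765 in knockout skin, 1.33-fold higher (0.41). Dtx3l read 0.0339 and 0.0388 (0.19), and its 3 probes gave 0.13, 0.19 and 0.26, but after normexp correction Dtx3l stood at 0.0028. The probes at 0.13 and 0.19 were dim, with 0.0107 and 0.00995 in wild type skin. Parp9 was level (0.437 and 0.446, 0.03), and lay on either side of 0 depending on the setting. The 3 genes lie within 140 kb on chromosome 16.

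The remaining direct antiviral genes were divided. Eif2ak2, the kinase PKR that halts translation on double-stranded RNA, read 0.245 and 0.294 (0.26). Rsad2, or viperin, and Cmpk2, a nucleotide kinase beside it on chromosome 12, were level at 0.07 (0.181 and 0.189) and 0.08 (0.106 and 0.112). The membrane proteins were lower. Bst2, or tetherin, which holds budding virus on the cell surface, read 2.90 and 2.30, 1.26-fold lower (−0.33). The only spot of Bst2 lies in the rows of the slide where dim spots scattered more. Ifitm3, which blocks viral fusion, was printed at 10 spots: it read 4.02 and 3.51 (−0.20), and the spots ranged from −0.33 to −0.14 with an SD of 0.06, all below 0.

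The last group holds products with various sites of action. Sp100, a nuclear body protein, was 1.27-fold lower (0.0379 and 0.0299, −0.34). Xaf1, a partner of apoptosis inhibitors, was at 0.14 (0.0734 and 0.0810, and 0.01 after normexp correction), Ifi44 at 0.15 (0.126 and 0.139) and Ifi35 at 0.08 (0.675 and 0.713). Ifi27l2a, a mitochondrial protein, was at −0.08 (4.07 and 3.84). Cxcl10, the chemokine that draws T cells, was level at −0.06 (0.197 and 0.189), and its other probe was not well above background on either array. Tap1, the peptide transporter of class I antigen presentation, read 0.133 and 0.109, 1.22-fold lower (−0.29). It too was printed at 10 spots, which ranged from −0.36 to −0.20 (SD 0.06), so that printing error was small against its difference. Whether animals of the same genotype would differ by as much cannot be told from 1 pool each.

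**Figure D2:**
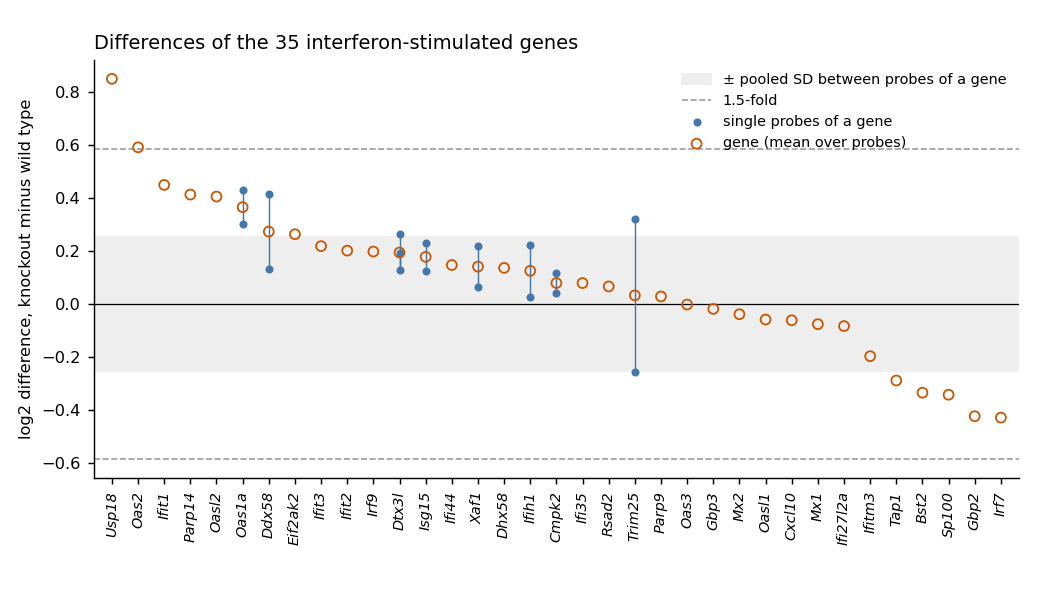
Log2 difference (knockout minus wild type) of the 35 members, from highest to lowest. Open points are genes, filled points joined by a line are the probes of genes with more than 1, the grey band is ± the pooled SD between probes (0.25) and dashed lines mark 1.5-fold. Usp18 lies clearly above the upper line, Oas2 lies on it, and 22 members fall in the band.

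Over the alternatives tried, 20 members stayed above 0 and 9 below 0 in every setting that gave a value, and 6 changed side. Every setting processes the same arrays again, and the share of all genes that kept their side was not counted. Some of the 20 came close to 0 in a setting: Dtx3l fell to 0.0028, Xaf1 to 0.01 and Ifi35 to 0.02. Trim25 stood at 0.03 to begin with, and its probes lay on either side of 0. The 9 that stayed below were Bst2, Gbp2, Ifi27l2a, Ifitm3, Irf7, Mx1, Oasl1, Sp100 and Tap1. The 6 that changed side were Cmpk2, Cxcl10, Gbp3, Mx2, Oas3 and Parp9, all of them between −0.06 and 0.08 to begin with.

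The promoters were compared with these differences for the 27 members with an entry in the RefSeq promoter table. The 8 without one are Usp18, Oas2, Parp14, Dhx58, Parp9, Mx1, Mx2 and Ifi27l2a, so both members past 1.5-fold are left out of what follows. The windows run from 250 bases before to 50 bases after each annotated start. A match to the response element core on either strand was present in 14 of the 27 members, and in 3.99% of 27025 genes in that table (3.44% of 32851 windows). Isg15 held 3 matches, each overlapping the next, the first of them at −78 from the start site. Ifit1 held 2, at −104 and −85, and Ifit3 held 2, at −156 and −122.

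Members with a match ranged from −0.42 to 0.45 with a median of 0.10 (8 of 14 above 0), and the 13 without one ranged from −0.43 to 0.41 with a median of 0.08 (9 above 0). Bst2 and Ifitm3, each with 2 matches, were lower, while Oasl2, with none in the window, was among the highest. For all measured genes with a window, the median was −0.00489 over 512 genes with a match and −0.02 over 13343 without. A match describes the letters of the window and is not evidence of binding, and its absence says nothing about the factor.

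**Figure D3:**
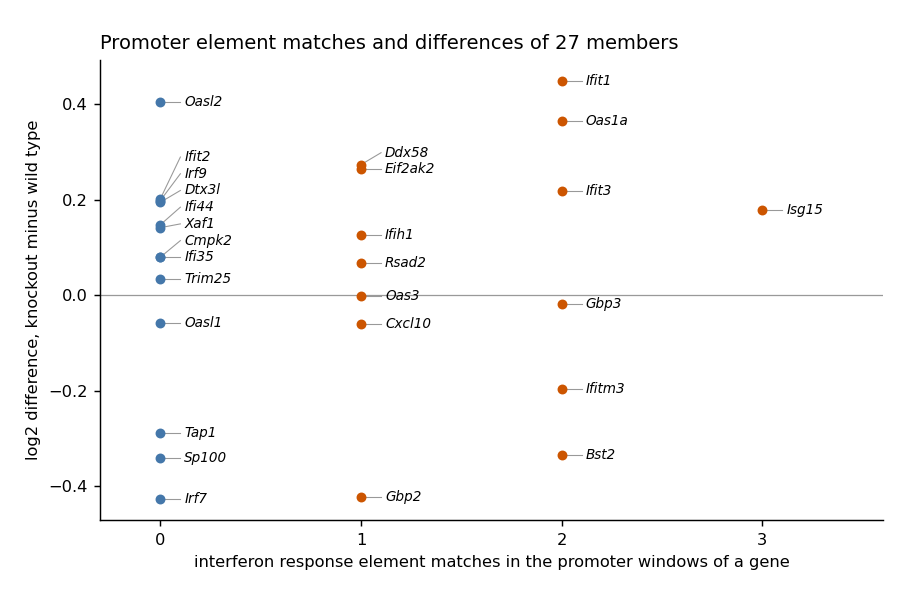
Log2 difference (knockout minus wild type) of 27 members against the number of response element matches in their promoter windows (0 in blue, 1 or more in orange). Members with 0, 1 and 2 matches each span values above and below 0.

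The rest of the interferon pathway was read from lists that leave the members out. Of 43 other type I interferon-stimulated genes listed, 37 were measured, with a median of 0.10 and 24 above 0, and 36 were within 1.5-fold. The exception was Samd9l, a regulator of translation and endosomes, which read 0.342 and 0.534, 1.56-fold higher, with 0.62 and 0.67 at its 2 probes. For Samd9l 1 spot lies in the rows where dim spots scattered more, and without those rows it was 1.53-fold higher. Trim30a was next at 0.43, and the lowest were Phf11b at −0.35 and Trim21 at −0.34.

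The 16 GTPases that respond mainly to interferon gamma had a median of −0.11, with 11 below 0, and 2 were at least 2-fold lower. Gbp11 read 0.349 in wild type and 0.164 in knockout skin, 2.13-fold lower, and Tgtp1 0.0205 and 0.00981, 2.09-fold lower. After normexp correction neither reached 2-fold (Gbp11 1.997-fold, Tgtp1 1.43-fold), and Tgtp1 was 1.97-fold lower after loess and 1.98-fold lower after quantile normalization. The Tgtp1 signal was dim, and its only spot lies in the rows of the slide where dim spots scattered more. Gvin1 at 0.45 and Tgtp2 at 0.44 were the highest. These GTPases belong to families of close paralogs whose probes can share signal.

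Class I antigen presentation genes were near level, with a median of −0.06 over 18 measured genes, all within 1.5-fold. Tapbp and Tap2, which load peptides beside Tap1, were at −0.26 and −0.26, the class I heavy chain H2-K1 at −0.20, and B2m, its light chain, at 0.01. The highest were Erap1 at 0.12 and Calr at 0.03. Chemokines tied to interferon had a median of −0.18 over 8 genes. Cxcl9, induced by interferon gamma, read 0.0225 and 0.0139 (−0.70, and −0.30 after normexp correction), and the monocyte attractant Ccl7 0.506 and 0.329 (−0.62). Cxcr3, the receptor for Cxcl9 and Cxcl10, was at 0.20 and Cxcl12 at 0.09.

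**Figure D4:**
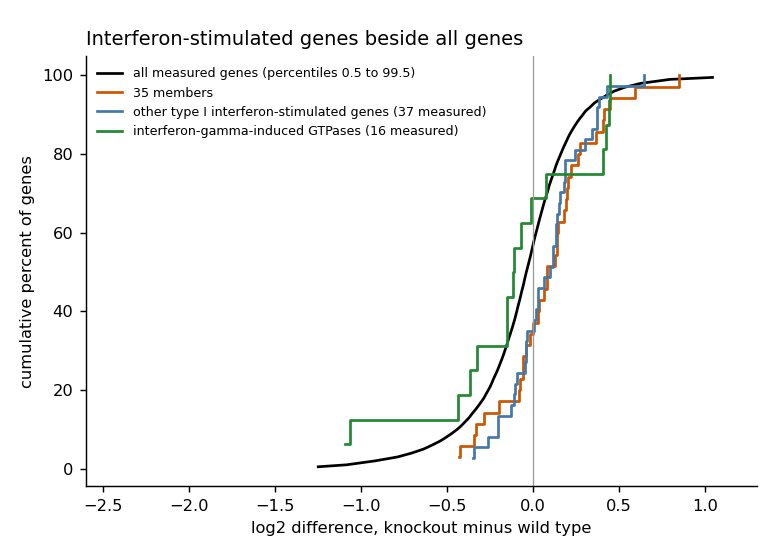
Cumulative percent of genes against log2 difference (knockout minus wild type) for the members, other type I interferon-stimulated genes, interferon-gamma-induced GTPases and all measured genes. The curves of the members and of the other type I genes lie to the right of that of all genes through the middle of the range, with medians of 0.08 and 0.10 against −0.04, and the curve of the GTPases has a median of −0.11.

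Interferon transcripts themselves gave little signal. Of 19 ligand genes listed, 10 were measured, and Ifnb1, Ifng, Ifne and Ifna4 were not well above background on either array. The measured ones were dim, at most 0.0584 in the wild type (Ifnl3), and had a median of −0.29, with 8 of 10 below 0. Ifnk, the interferon of keratinocytes, read 0.0314 and 0.0260 (−0.28). Ifna13 and Ifna5 were lowest at −0.89 and −0.43, and Ifna12 and Ifna11 highest at 0.35 and 0.31. The Ifna13 value was −0.39 after normexp correction, and interferon alpha genes are close paralogs that probes can hardly separate. Ifna2 was well above background in the wild type alone, so no fold is given for it.

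The 6 receptor chains were lower by small amounts, from −0.25 for Ifnar2 to −0.03 for Il10rb, which scaling on the array median put above 0. Ifngr2, a chain of the interferon gamma receptor, was at −0.21 and Ifnar1 at −0.13. Of 18 signalling genes, all were within 1.5-fold, with a median of 0.07. Tyk2 and the repressor Irf2bp1 were highest at 0.42 and 0.34, and Irf2bp2 and Irf5 lowest at −0.29 and −0.24. Stat2 was at 0.02. Nucleic acid sensing genes had a median of 0.13 over 21 genes, 16 of them above 0. Mavs, the adaptor through which RIG-I and MDA5 signal, read 0.893 and 1.38 at 1 probe, 1.55-fold higher. Local correction by surrounding spots left Mavs at 1.4996-fold. Rnaseh2b, a subunit of the enzyme that clears ribonucleotides from DNA, read 1.15 and 1.69 (0.56). Unc93b1 and Tlr9 were lowest at −0.19 and −0.13.

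**Figure D5:**
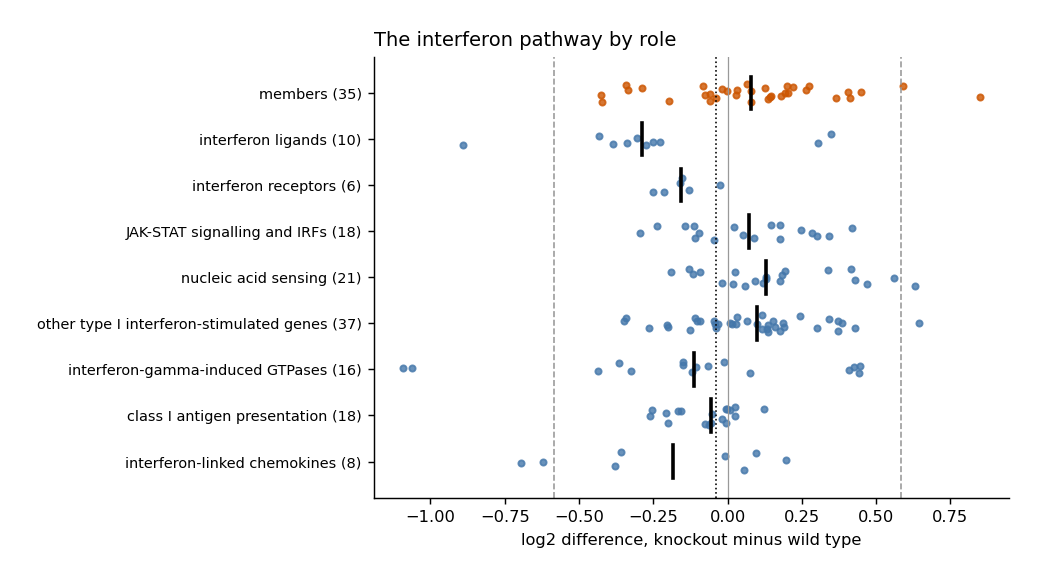
Log2 difference (knockout minus wild type) of every measured gene of the members and of 8 pathway lists (number measured in parentheses), with points spread vertically for legibility. Thick bars are list medians, the dotted line is the median of all genes (−0.04) and dashed lines mark 1.5-fold. List medians run from −0.29 for the ligands to 0.13 for nucleic acid sensing.

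The labels and the tissue were checked with Sdr9c7 and with markers of cell types, several of which differed between the genotypes. Sdr9c7 read 0.324 in wild type and 0.0478 in knockout skin, 6.77-fold lower, and was still well above background. All 9 keratinocyte and all 7 fibroblast markers were well above background, with medians of 0.04 and −0.03. Skeletal muscle and adipocyte markers were lower in the knockout, all 9 and all 8 of them, with medians of −0.97 and −0.91 and summed signals from 140.0 to 78.6 and from 78.4 to 50.1. Endothelial markers were lower too, 7 of 7 under every scaling tried (median −0.21, summed signal from 21.4 to 16.4), as were 5 of 6 melanocyte markers (median −0.29, from 28.9 to 25.6). In bulk tissue fewer cells of a type and less RNA per cell cannot be told apart, and the part of these shifts in the values above was not tested.

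Markers of immune cells, which express many of the members, were present in both genotypes. Of 7 pan-leukocyte markers 6 were above 0, with a median of 0.18 and a summed signal from 5.63 to 6.55. The largest part of that sum was Coro1a (2.46 and 2.92). Macrophage markers had a median of 0.03 over 10 genes, from Lyve1 at −0.31 to Fcgr1, itself an interferon gamma target, at 0.50, and summed to 10.4 and 10.3. T cell and NK cell markers had a median of 0.14 over 8 genes and summed to 1.25 and 1.28. After normexp correction that median was 0.03, with 5 of 8 above 0 in place of 7. The plasmacytoid dendritic cell list, the cells known for interferon alpha, had a median of 0.27 over 7 genes (0.03 after normexp correction), with Siglech at 0.30 (its 2 probes at −0.05 and 0.66) and Cox6a2, also a muscle gene, at −1.12. Its summed signal of 22.8 and 14.3 was mostly Cox6a2, and the list shares Bst2 with the members. Langerhans and dendritic cell markers summed to 1.06 on both arrays, mostly Cd74 (0.851 and 0.831). Their median was 0.05 over 6 genes (−0.05 after normexp correction), from Zbtb46 at −0.72 to Ccr7 at 0.40. The defining genes Cd207 and Xcr1 were not well above background. Neutrophil markers had a median of −0.03 over 5 genes, with 3 below 0 (4 after normexp correction). They summed to 48.2 and 48.4, mostly Csf3r (46.4 and 46.6). The part of these marker differences in the members' values was not tested.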

How the data were processed

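RNA from dorsal skin of newborn mice was measured on 1 single-colour Agilent array per genotype. Per the file headers, the authors' scanner files hold intensity values made with Agilent Feature Extraction 11.5.1.1, with spatial and multiplicative detrending switched on. The deposited series matrix holds a ratio, on a linear scale: processed intensity over a fixed number for each array (1906 wild type, 2080 knockout), with no gene centring and genotypes not set against each other. Its medians were 0.0855 and 0.0840, and how it was made is not stated (not given in the sources used here).

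Log2 of the processed intensity was used. Controls and 180 outlier spots were removed, spots of a probe were averaged, and the 75th percentile of each array was subtracted. Gene values are means over probes well above background on both arrays. Members were found by the gene name in the scanner files. Of all 39429 probes, 28330 were named through their RefSeq accession, 2204 by symbol and 174 by synonym (GRCm38.p6 table), and 8721 kept the name of the files.

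With 1 array per genotype no test was run. Values are described against 1.5-fold and 2-fold and against the spread between probes. The steps were tested on simulated data. Python 3.11.15, pandas 2.3.3, R 4.3.3 and limma 3.58.1 (normexp) were used. Alternatives covered background correction, scaling, dim probes, probe summary, the series matrix and slide position. The members and gene lists were chosen with earlier results of these data known. Every member is named, as are the 2 highest and 2 lowest genes of each pathway list and those at least 2-fold apart. Other pathway and marker genes (such as Ifnk, Stat2, Ifnar1, B2m, H2-K1, Ifit3b, Siglech and Fcgr1) were named after their values were seen.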

Additional observations from a re-analysis of the deposited data

How the results depend on the processing

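With 1 pool and 1 array per genotype, every value lacks a replicate check, and only spot and probe error were measured. The median of the members ranged from 0.02 after normexp background correction to 0.14 under quantile normalization, always above the median of all genes. Members at least 1.5-fold higher numbered 2, but 1 (Usp18) after normexp correction, with local correction by surrounding spots, and without the rows where dim spots scattered more. The first 2 put Oas2 below the line, and the last, chosen after seeing the data, removed its probe and left 26 members. The count of members at least 1.5-fold lower, and of those at least 2-fold apart, was 0 in every setting. Among all genes at least 1.5-fold apart, 28.2% were higher in the knockout, against 38.5% under quantile normalization. That share ran from 22.5% after normexp correction to 42.2% with no filter on dim probes. The 541 genes 1.5-fold higher became 179 after normexp correction and 1912 with no filter on dim probes. Among members, Trim25 moved most, to 0.32 with its brightest probe. No paired analysis was possible because each genotype had 1 array.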
